A study of Mus musculus with 2 samples.

Results

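Nonsense-mediated decay (NMD) transcripts are RNAs that the GENCODE M21 mouse annotation marks as likely targets of NMD. They were followed here in mouse left cerebral cortex by long-read RNA-seq, in which a single read spans a transcript or a large piece of it. A transcript was counted as a member when it was an annotated (Known) model of the type nonsense_mediated_decay and had at least 1 read in either library. This gave 757 members of 7186 annotated NMD transcripts, in 679 genes, out of 24519 annotated transcripts of every type with a read. The tissue came from B6CASTF1/J mice, the first-generation hybrid of the C57BL/6J and CAST/EiJ strains, aged 18 to 20 months, with 2 µg of total RNA per library. The 2 libraries are labelled as biological replicates 1 and 2 of 1 group, with no treatment, no genotype contrast and no control group. The labels give both libraries the same donor entry and do not say whether they came from separate animals, so any spread between them may be technical. The sex is given as female in the sample fields and as male in the free text, and the libraries held 34 and 29 reads of Xist and 0 reads of the 4 Y-linked genes Ddx3y, Uty, Kdm5d and Eif2s3y.

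NMD is a quality-control and regulatory pathway that degrades mRNAs while they are translated. During splicing an exon junction complex is left just upstream of each exon junction, and ribosomes of the pioneer round of translation displace it. Where a ribosome stops well before the last junction, the remaining complexes recruit the UPF and SMG factors, and the RNA is degraded. Many splicing factors carry so-called poison exons that use this route to limit their own level, and neurons use it to adjust the level of several synaptic regulators. The annotated type is a prediction from the position of the stop codon. The libraries measure the RNA present in the tissue, not its decay, and no sample with NMD blocked was analysed here.

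The sequences that carry the annotated stop are shown first, because the stop codon is what places these transcripts in the class. They are the mm10 reference sequence of the annotated transcripts, and the hybrid's own reads were not analysed here. In the added exons of Yaf2-202 (minus strand, chr15:93317554-93317608), E2f6-204 (plus strand, chr12:16813847-16813879), Cbarp-212 (minus strand, chr10:80136703-80136743), Srsf3-201 (plus strand, chr17:29039454-29039487) and Sat1-207 (minus strand, chrX:155215217-155215230), the run below goes from the start of the exon to its stop codon, which is in capitals.
Yaf2-202: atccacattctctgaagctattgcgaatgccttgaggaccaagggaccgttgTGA
E2f6-204: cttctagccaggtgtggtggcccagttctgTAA
Cbarp-212: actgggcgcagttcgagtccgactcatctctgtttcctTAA
Srsf3-201: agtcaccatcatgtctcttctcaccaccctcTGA
Sat1-207: gttacagtctcTAG

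In retained introns the reading frame runs from the exon into the intron. For Ddx5-208 (minus strand, chr11:106783954-106783973) and Ppp1cc-203 (plus strand, chr5:122172941-122173030) the last 15 bases of the exon are followed by the intron up to the stop codon in capitals. In Ddx5-208 the stop ends 5 bases into the intron, and in Ppp1cc-203 it ends 75 bases into it. Rnf114-203 skips an exon instead, and its run (plus strand, 15 bases up to chr2:167503601 and then on to chr2:167510906) crosses the new junction and ends at the stop 31 bases after it.
Ddx5-208: cctccagagggctaggtTAG
Ppp1cc-203: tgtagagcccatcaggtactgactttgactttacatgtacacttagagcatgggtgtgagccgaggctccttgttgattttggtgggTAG
Rnf114-203: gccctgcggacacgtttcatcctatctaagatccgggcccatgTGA

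Among members with many reads, some differ from a coding transcript by only 4 nt at a 5' splice site. The last 24 bases of the longer exon are shown for Cyth2-203 (minus strand, chr7:45810123-45810146) and Hrh3-207 (minus strand, chr2:180103902-180103925), with the 4 nt in capitals. Cyth2-203 is the form with the longer exon, while Hrh3-207 is the form with the shorter one, so its 4 capital bases are intronic.
Cyth2-203: gggctggctcctaaagctggGTAC
Hrh3-207: tcgccatctccgacttcctcGTGG

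Each library held 871524 and 839150 reads (replicates 1 and 2), of which 774629 and 679147 fell on annotated genes. That was 88.9% of replicate 1 and 80.9% of replicate 2, and models with a single exon took 20.6% and 28.7% of the mouse reads. At this depth a transcript with no read in a library could still be present at up to 3.87 (replicate 1) or 4.42 (replicate 2) CPM (reads per 1000000 reads on annotated genes). That limit is 3 reads, and like every interval given here it covers counting error only. Marker genes of brain cell types were present. The summed level was 1397 and 1288 CPM for 4 excitatory neuron markers, 746 and 680.3 CPM for 6 inhibitory neuron markers, 3261 and 3532 CPM for 4 astrocyte markers and 1855 and 1618 CPM for 4 oligodendrocyte markers, with none of these at 0. Markers of striatum summed to 644 and 570 CPM, those of hippocampus to 263 and 267 CPM, those of blood to 372 and 194 CPM, the liver marker Alb was at 0, and of 3 choroid plexus markers 2 were at 0 and Ttr was at 23.2 and 7.36 CPM. The markers do not by themselves separate cortex from neighbouring regions. The part of the other cell types in the values that follow was not tested.

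NMD-annotated transcripts held 2529 reads in replicate 1 and 2295 in replicate 2. As a share of all reads on annotated genes that was 0.326% (95% Wilson interval 0.314 to 0.339) and 0.338% (0.324 to 0.352), or 0.332% ± 0.0081 (SD, n = 2). The intervals of the libraries overlap. On the CPM scale the sum was 3265 and 3379. With DESeq2 size factors in place of library totals it was 3354 and 3289, so which library is higher depends on the scaling. Protein-coding transcripts took 67.6% and 64.3% of the same reads, retained-intron transcripts 0.964% and 1.18%, and processed transcripts 0.506% and 0.518%, the rest being models that match no annotated transcript in full or transcripts of other types. NMD transcripts were therefore the least abundant of these 4 types by reads in both libraries.

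Most members were rare. Replicate 1 held 581 of them and replicate 2 held 538, with 362 in both, 219 in replicate 1 alone and 176 in replicate 2 alone. A single read was the whole evidence for 306 members, the median was 2 reads over both libraries, 222 members had 5 or more, 35 had 20 or more and 8 had 100 or more. The 20 members with the most reads held 41.9% of all reads on the class. In genes with 20 or more reads in each library, 511 of 3038 annotated NMD transcripts (16.8%) had a read, against 48.2% of protein-coding, 20.0% of retained-intron and 9.74% of processed transcripts. The members were also longer than the annotated NMD transcripts that had no read. Within those genes the median length was 1613 nt for the members and 856 nt for the 2527 others, with a median of 7 exons in each. Over all genes, 10.4% of members carried a tag for an incomplete end in the annotation, against 31.3% of the NMD transcripts without a read.

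Within genes, the usual NMD transcript was a minor form. The share of a gene's reads could be given for the 511 members in genes with 20 or more reads in each library, and its median was 2.70% in replicate 1 and 2.63% in replicate 2. The share was under 5% over both libraries for 356 of these members and reached 20% for 26. A member enters with a single read, so a gene near the minimum of 20 reads cannot show a low share, and with a minimum of 50 reads the median was 1.48%. The share showed no clear relation to how far the stop lay from the last junction: Spearman's rho was 0.0503 over the 511 members, which share the same 2 libraries. The median share was 2.00% for the 120 members whose stop lay under 150 nt from the last junction, 2.57% for the 192 at 150 to under 500 nt, and 2.13% for the 199 at 500 nt or more.

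**Figure D1:**
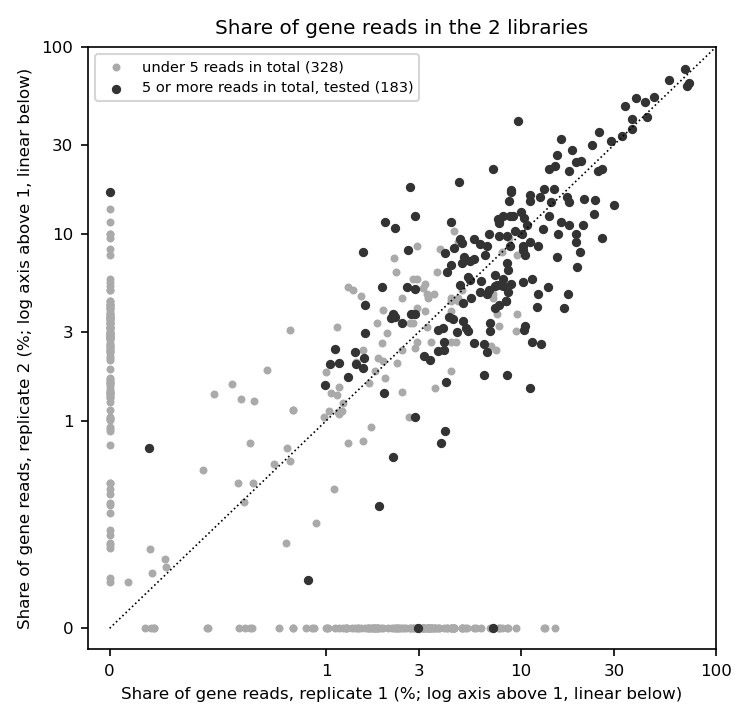
Share of its gene's reads taken by each of the 511 members in genes with 20 or more reads in each library, replicate 1 on the x axis and replicate 2 on the y axis, in percent, on axes that are linear below 1 and logarithmic above. Each point is 1 transcript, and the dotted line marks equal shares. The 183 tested members (dark) lie along the line up to the highest shares, and the members with fewer reads (grey) scatter widely, many at 0 in 1 library.

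No member's share differed between the libraries past the threshold of the test. Each transcript with 5 or more reads in such a gene was compared between the libraries with Fisher's exact test (two-sided), its reads against the other reads of its gene, with Benjamini-Hochberg adjustment over all 8421 annotated transcripts tested. Of 183 NMD transcripts, 0 passed an adjusted p of 0.05, where the rate over all annotated transcripts was 0.0713% (6 of 8421) and over those of other types 0.0728% (6 of 8238). At an unadjusted p under 0.05 there were 9 (4.92%), 7 higher in replicate 2 and 2 higher in replicate 1, against 5.7% over all transcripts. Over all transcripts the split was the other way, with 160 higher in replicate 2 and 320 in replicate 1, while for retained-intron transcripts it was 26 and 4. The test compares these libraries as sequenced, not conditions. The lowest value was that of Ivns1abp-204, from a gene for an actin-binding Kelch protein. It held 5 of 104 reads in replicate 1 and 19 of 100 in replicate 2, with an adjusted p of 0.321 in Fisher's exact test. It was followed by Chpf-204 (3 of 133 and 12 of 112 reads) and Tmem208-204 (3 of 31 and 12 of 30), and all 3 differences are named because of these values.

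In a small number of genes the NMD-annotated form was the main product. It held 50% or more of the gene's reads, both libraries together, in 5 genes with 20 or more reads in each library, and it did so in each library separately in 4 of them. It was the most abundant model of its gene, unannotated models included, in 12 such genes, and in 17 it outnumbered all protein-coding annotated transcripts of the gene together in both libraries. The count of 17 leaves unannotated models aside, so such a member need not be the main product. Syt16-201 met it with 15.3% and 26.4% of its gene's reads. The 20 members with the most reads are described below by the way they differ from the nearest coding transcript of the gene.

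**Figure D2:**
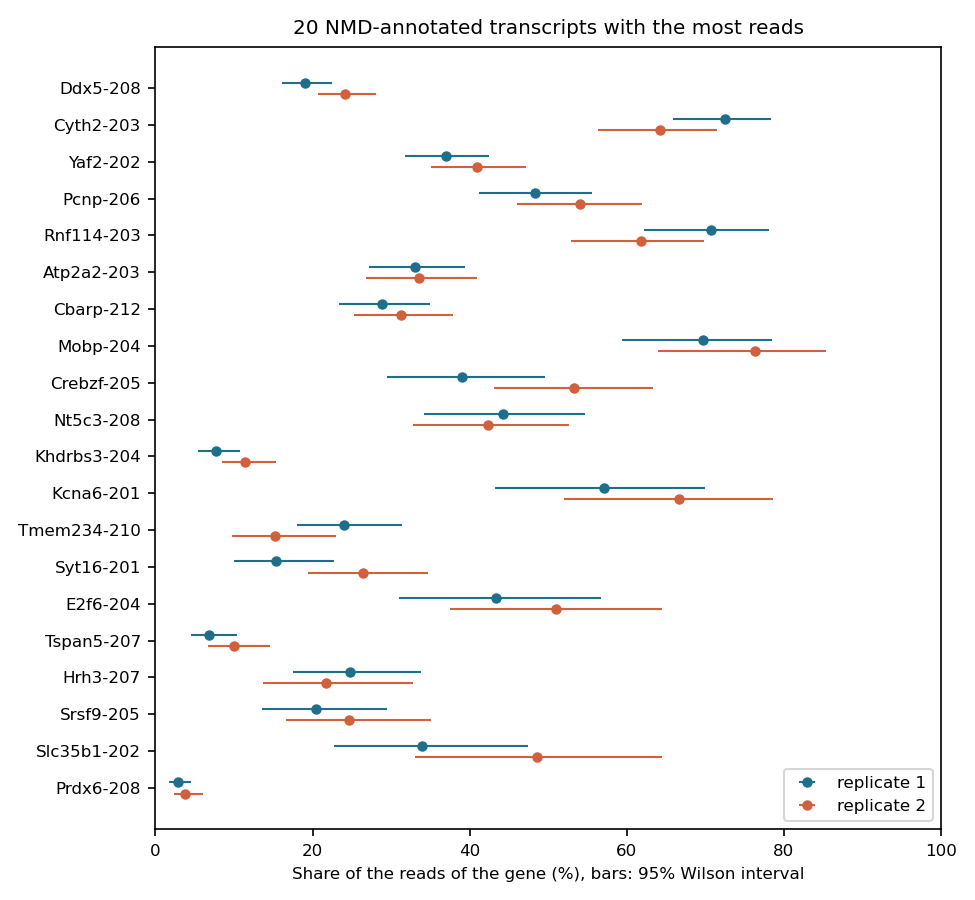
Share of the gene's reads (x axis, percent) for the 20 NMD-annotated transcripts with the most reads (y axis), in replicate 1 and replicate 2. Points are the 2 libraries and bars are 95% Wilson intervals. Mobp-204, Cyth2-203, Rnf114-203 and Kcna6-201 lie above 50% in both libraries. Pcnp-206, Crebzf-205 and E2f6-204 lie on either side of it, and for each of the 20 the 2 intervals overlap.

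Members that differ at a splice site made up the most common class. Cyth2-203 (chr7:45807639-45814302, minus strand) comes from the gene of cytohesin-2, an exchange factor for ARF GTPases that acts in membrane traffic. It held 140 of 193 reads in replicate 1 and 97 of 151 in replicate 2, or 68.4% ± 5.87 (SD, n = 2). The coding transcript Cyth2-202 had 36 and 30 reads. The form with 4 more exon bases was therefore the main one of the gene in both libraries, although the annotation gives it the weakest transcript support level, 5. Pcnp-206 (chr16:56016999-56029676, minus strand), from a gene for a small nuclear protein, begins an exon 199 nt further upstream than Pcnp-202. It held 88 of 182 and 79 of 146 reads, 51.2% ± 4.07 (SD, n = 2), and a further member, Pcnp-205, held 14 and 17. The coding form Pcnp-202 had 53 and 28 reads, fewer than Pcnp-206 in each library.

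The other members of this kind held smaller shares. Tmem234-210, with 109 more nt of exon at a 5' splice site, had 37 of 154 reads in replicate 1 and 17 of 112 in replicate 2. Hrh3-207, from the gene of the histamine H3 receptor, which lowers transmitter release from neurons, had 26 of 105 and 15 of 69. Slc35b1-202 (a nucleotide transporter of the endoplasmic reticulum, 25 nt shorter at a 3' splice site) had 18 of 53 and 17 of 35. Tspan5-207, from a tetraspanin gene that gave 292 and 230 reads in all, had 20 and 23. For Hrh3 the coding transcript was the more abundant in both libraries. The coding Tmem234-201 had 38 and 33 reads, nearly the same as Tmem234-210 in replicate 1. All members of Tmem234 together held 47 and 20. Slc35b1-202 was below its coding transcript in replicate 1 (18 against 24 reads) and above it in replicate 2 (17 against 10).

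Skipped exons were led by Rnf114-203 (chr2:167503446-167516164, plus strand). Rnf114 encodes a RING-type ubiquitin ligase, and this form leaves out an exon of 151 nt (chr2:167507047-167507197). It held 87 of 123 reads in replicate 1 and 76 of 123 in replicate 2, 66.3% ± 6.32 (SD, n = 2), while the coding Rnf114-201 had 18 and 24. The transcript without the exon outnumbered the one with it in both libraries. Prdx6-208 skips 157 nt in the gene of an antioxidant peroxiredoxin and had 16 of 562 and 16 of 427 reads. Vti1b-203 skips 59 nt in a SNARE gene of endosomal traffic and had 9 of 222 and 16 of 203. In both of these genes the coding form held most reads.

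Added exons were led by Yaf2-202 (chr15:93284281-93336935, minus strand). Yaf2 is a subunit of variant Polycomb repressive complexes. The 70-nt exon (chr15:93317539-93317608), which lies inside an intron of Yaf2-201, brings the stop printed above. Yaf2-202 held 115 of 311 and 102 of 249 reads, 39.0% ± 2.82 (SD, n = 2), against 160 and 126 for Yaf2-201. E2f6, a repressor of the E2F family that also works with Polycomb proteins, showed a higher share: E2f6-204, with an exon of 66 nt, held 23 of 53 and 25 of 49 reads, and the coding E2f6-201 had 18 and 11. Cbarp-212, from the gene of a regulator of voltage-gated calcium channels, held 67 of 232 and 64 of 205 reads and was the most abundant model of its gene, ahead of Cbarp-201 with 18 and 12. Over the reads of annotated transcripts alone its mean share was 78.8% in place of 30.05%. Its 54-nt exon overlaps an exon that another transcript of Cbarp codes with.

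Retained introns were led by Ddx5-208 (chr11:106781548-106788494, minus strand), which had the most reads of any member. Ddx5 encodes a DEAD-box RNA helicase that acts in splicing, transcription and microRNA processing. The transcript keeps an intron of 1265 nt (chr11:106782694-106783958) and held 114 of 597 reads in replicate 1 and 128 of 529 in replicate 2, 21.6% ± 3.61 (SD, n = 2). The unadjusted p of the difference was 0.0418 and the adjusted p was 0.843 (Fisher's exact test), so the difference did not pass. The coding Ddx5-201 had 361 and 286 reads. The annotation also places the microRNA gene Mir3064 and the small RNA gene Gm25994 on the same strand within Ddx5-208. Other named members also overlap another gene on the same strand, among them Atp2a2-203, Mobp-204, Nt5c3-208, Khdrbs3-204 and Ppp1cc-203. Ppp1cc-203, which keeps 190 nt in the gene of a catalytic subunit of protein phosphatase 1, had 13 of 170 and 18 of 150 reads. Habp4-203, which keeps 2294 nt, had 14 of 571 and 16 of 480.

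A further class has its stop at the same place as a coding transcript of the gene, and an intron after it. Any coding transcript of the gene could give the match, not only the nearest, so these members vary in structure. In this class Srsf6-201 has its stop inside an internal exon of 268 nt, and Ivns1abp-204 has 7 junctions after its stop. Atp2a2-203 (chr5:122453513-122502174, minus strand) shares its coding sequence with Atp2a2-201, from the gene of the SERCA2 calcium pump of the endoplasmic reticulum, and has an intron of 1588 nt downstream of the stop. It held 75 of 227 and 56 of 167 reads, 33.3% ± 0.349 (SD, n = 2), against 52 and 34 for Atp2a2-201. Over annotated transcripts alone the share was 60.1%. Mobp-204 (chr9:120149742-120181484, plus strand) shares its coding sequence with Mobp-202, from the gene of a myelin protein of oligodendrocytes, and has 2 junctions after the stop. It held 60 of 86 and 45 of 59 reads, 73.0% ± 4.60 (SD, n = 2), the highest mean share among members of genes with 20 or more reads in each library, while coding transcripts of Mobp summed to 4 and 1. In bulk tissue, fewer oligodendrocytes and less RNA per cell cannot be told apart in the level of such a gene, but the share within the gene is taken from the same reads. Kcna6-201, from the gene of the voltage-gated potassium channel Kv1.6, held 28 of 49 and 30 of 45 reads. It has the same introns as the coding Kcna6-204, so the reads of these transcripts differ only at the ends, and over annotated transcripts alone its mean share was 93.5% in place of 61.9%. Khdrbs3-204, from the gene of a neuronal splicing regulator, held 31 of 402 and 37 of 323 reads.

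Crebzf-205, from the gene of a basic leucine zipper factor, splices out 1047 nt that Crebzf-201 keeps, and held 34 of 87 and 48 of 90 reads. It exceeded Crebzf-201 in each library (30 and 19 reads). Nt5c3-208, which begins at another first exon of the gene of a pyrimidine nucleotidase, held 38 of 86 and 39 of 92. Syt16-201, from the gene of an atypical synaptotagmin, held 19 of 124 and 33 of 125 reads, with an unadjusted p of 0.0421 and an adjusted p of 0.843 in Fisher's exact test. Srsf9-205, from an SR splicing factor gene, held 20 of 98 and 20 of 81. Over annotated transcripts alone the mean share was 60.9% for Syt16-201 in place of 20.9%, and 45.2% for Srsf9-205 in place of 22.5%.

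**Figure D3:**
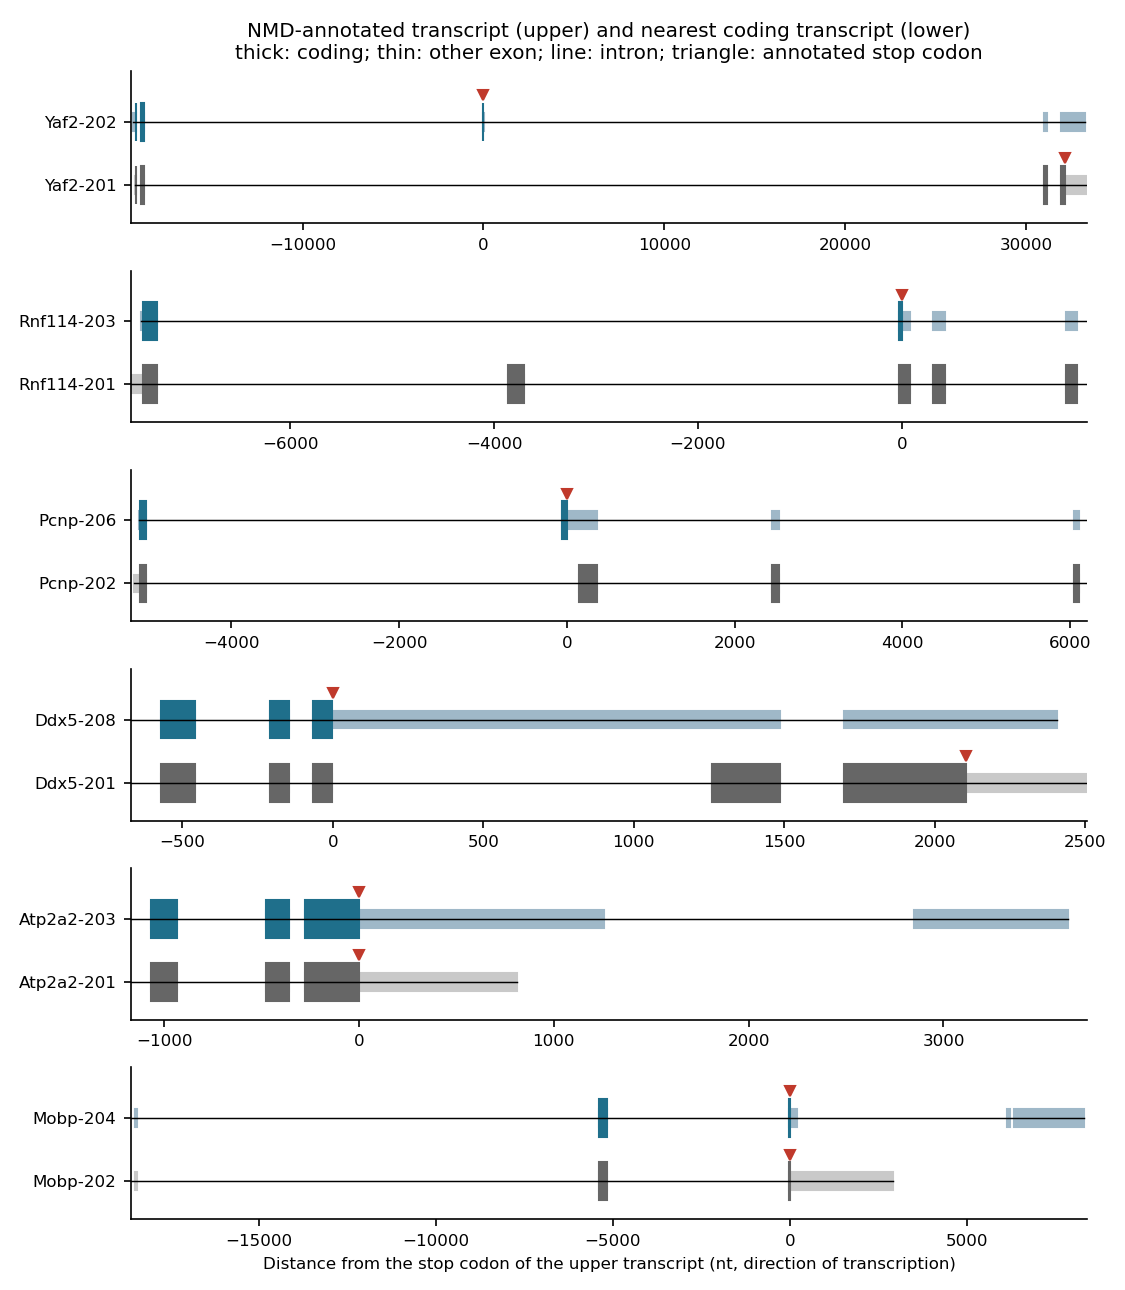
Exon maps of 6 members (upper line of each panel) and the nearest coding transcript (lower line) around the stop codon of the member, which is at 0 on the x axis (nt in the direction of transcription). Thick boxes are coding, thin boxes are other exon sequence, lines are introns and triangles are annotated stop codons. Yaf2-202 gains an exon, Rnf114-203 loses 1, Pcnp-206 starts an exon earlier, Ddx5-208 keeps an intron, and Atp2a2-203 and Mobp-204 have their stop at the same place as the coding form with introns after it.

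Over all 757 members, a change of a splice site was the most frequent difference from the nearest coding transcript, with 268 members and 905 and 754 reads (35.8% and 32.9% of the reads on the class). A skipped exon followed with 181 members (16.2% and 16.8% of reads), an added exon with 126 (18.1% and 16.6%), an intron after the coding stop with 69 (14.5% and 14.9%), and a retained intron with 24 (7.51% and 9.06%). The remaining 89 members held 7.87% and 9.80% of reads. They differed in several ways or in another way, such as the first exon of Nt5c3-208, or had no coding transcript to compare with. The retained-intron class thus had 3.17% of the members and more than that share of the reads, most of them from Ddx5-208. Among the members tested between libraries, none of any class passed. The coding sequence was the same as that of a coding transcript in 54 members, which held 586 reads. All but 1 of these were in the class with an intron after the coding stop, 53 of its 69.

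**Figure D4:**
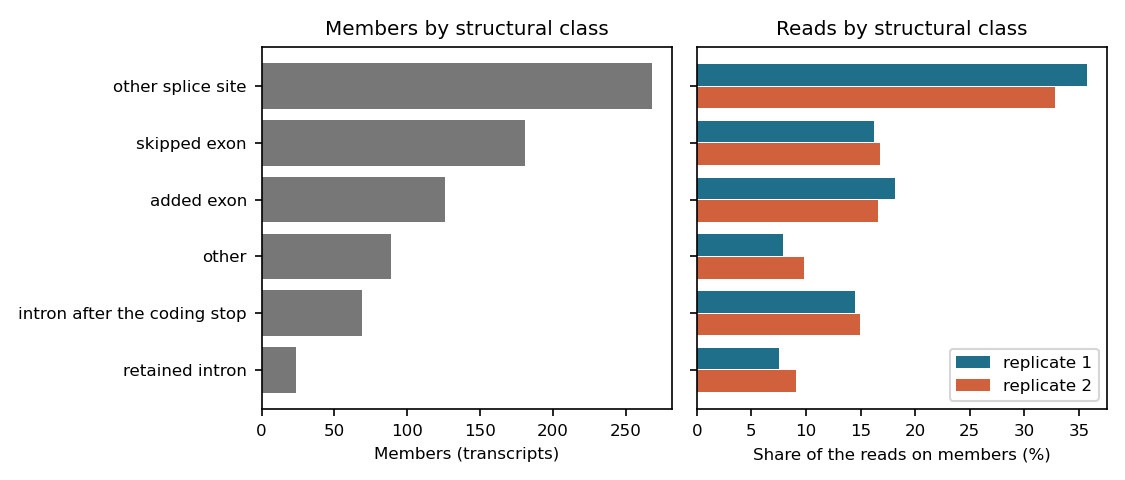
Number of members in each structural class (left panel, bars) and share of the reads on members in each class (right panel, percent, 1 bar per library). The class with a moved splice site is the longest bar in both panels with 268 members, and the retained-intron class has the fewest members, 24.

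The size of the changed piece showed how the frame is affected in the annotation. Of 162 members that differ by 1 skipped exon, 3 skip a length divisible by 3 (1.85%), so nearly all shift the reading frame. Of 260 that differ by 1 moved splice site, 38 were divisible by 3 (14.6%). Of 117 with 1 added exon the number was 36 (30.8%), and in each of these 36 the stop lay inside the added exon. In all, 100 of the 117 added exons carried the stop themselves, 15 had it downstream and 2 upstream. These properties follow from the way the class is annotated, and are given as a description. The stop lay at least 50 nt before the last junction in 754 of the 757, which is the distance the annotation uses, with a median of 343 nt (quartiles 161 and 713). A median of 3 junctions followed the stop, and 182 members had only 1. The stop codon was TGA in 429 of 756 members with an annotated stop (56.7%), TAA in 168 (22.2%) and TAG in 159 (21.03%). In the 17437 protein-coding transcripts with reads it was TGA in 50.9%, TAA in 25.9% and TAG in 23.2%.

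The most common shift of a splice site was 4 nt, in 17 members with 195 and 140 reads. The next most common was 26 nt, in 8 members. Of the 17, 10 lay at a 5' splice site and 7 at a 3' splice site. At 8 of the 10 5' sites the 4 bases began with GT, the letters that open nearly all introns, as in the runs of Cyth2 and Hrh3 printed above, and at all 7 of the 3' sites they ended with AG, the letters that close them. Cyth2-203 gave 140 and 97 of these reads, and Hrh3-207 gave 26 and 15. Shifts of 10 nt or less made up 38 members with 488 reads. For such short shifts the read itself, not analysed here, would be needed to see how the alignment placed the junction.

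Inclusion was also measured over every model of the gene, annotated or not, for internal exons of members that no coding transcript holds with the same ends. These are not only the added exons of the class above, and 143 of the 187 carry the stop. A read counted as including the exon when it held both flanking junctions, and as skipping it when it joined the outer sites directly. Of 187 such cassette exons in members, 116 had 20 or more informative reads. Their median inclusion was 8.33% in replicate 1 and 8.20% in replicate 2, with 42 under 5%, 28 over 20% and 9 over 50%. The mean of the 2 medians, 8.27%, was 5.39% for exons with 50 or more informative reads and 3.77% when only reads of annotated transcripts were counted. Some of these exons overlap an exon that another transcript codes with. Reads with that other exon count as neither including nor skipping, so such a value is not the use of the exon within the gene. The exons of Pcnp-206 and Pcnp-205, which overlap each other, both stood at 100%. Without all exons that overlap a coding exon, 101 measured exons had a median of 7.69% and 6.67%, with 23 over 20% and 5 over 50%.

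The well-measured exons ran from almost never to mostly included. The Yaf2 exon was included in 124 of 302 reads in replicate 1 and 107 of 241 in replicate 2 (41.1% and 44.4%), the E2f6 exon in 26 of 48 and 27 of 42 (54.2% and 64.3%), and the Cbarp exon in 99 of 123 and 86 of 105 (80.5% and 81.9%). The Cbarp exon overlaps a coding exon, and reads with that coding exon instead count as neither. Its 123 and 105 informative reads were only a part of the 232 and 205 reads of the gene. At the other end, several of the exons with the most informative reads were rarely included. The exon of Actg1, which encodes gamma actin, was in 1 of 1113 and 2 of 824 reads. The exon of Mtch1, a mitochondrial outer membrane protein, was in 6 of 989 and 5 of 780. The exons of Sumo3 (1 of 233 and 1 of 180), Vti1b (1 of 215 and 0 of 198), Ube2d3 (1 of 209 and 0 of 188) and Elob (3 of 191 and 3 of 149), genes of ubiquitin-like modification or, for Vti1b, membrane fusion, were also included in few reads.

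Celf4 and Rbm39, which encode RNA-binding regulators of splicing, lay between these. The 85-nt exon of Celf4-208, which does not carry the stop, was in 52 of 524 and 48 of 483 reads, 9.92% and 9.94%. Celf4-208 itself had 0 and 2 reads, so nearly all reads with this exon were assigned to other models of the gene. In Rbm39 the exon of Rbm39-223 was in 8 of 186 and 6 of 168 reads and that of Rbm39-225 in 10 of 182 and 6 of 161. In the SR factor gene Srsf3 the 456-nt exon of Srsf3-201, a well-known poison exon, was in 2 of 120 and 6 of 93 reads (1.67% and 6.45%), whose intervals overlap.

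Reads with NMD-specific splicing were more numerous than the reads assigned to members. A junction was called NMD-only when it occurred in NMD transcripts of the gene and in no annotated transcript of another type. Reads with such a junction numbered 5463 and 5224 over all models, 0.705% (0.687 to 0.724) and 0.769% (0.749 to 0.790) of annotated-gene reads. Members held 33.5% and 31.3% of them, or 1831 and 1637 reads. The rest of the 2529 and 2295 reads on members had no such junction. New combinations of known splice sites held 46.8% and 49.0%, models with partial matches to a known chain 10.05% and 10.4%, and models with a new splice site 9.67% and 9.25%. Such a model is not itself shown to be an NMD target, since its reading frame and ends may differ from those of the annotated transcript.

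For several genes these reads changed the picture given by the members. Atp2a2 had 139 and 98 reads with an NMD-only junction against 75 and 56 in members. Syt16 had 85 and 84 against 19 and 33, or 68.5% and 67.2% of its gene's reads. Srsf9 had 59 and 51 against 20 and 20. In Crebzf it was the other way, with 18 and 17 such reads against 50 and 63 in members. In Cnot2, a subunit of the CCR4-NOT deadenylase, 54 of 100 and 35 of 55 reads had such a junction, with 1 read in a member in each library. In all, 1531 genes had at least 1 such read, 971 of them without any member, and 22 without a member had 10 or more in each library. The largest of these 22 were Akap8l, a nuclear anchoring protein (34 of 133 and 44 of 174 reads), Brsk2, a kinase of neuronal polarity (31 of 142 and 37 of 137), Setd3, the actin histidine methyltransferase (37 of 210 and 30 of 176), Phc2, a Polycomb subunit (33 of 136 and 32 of 123), Fubp3, a single-strand nucleic acid binding protein (20 of 46 and 31 of 63) and Camsap1, which binds microtubule minus ends (28 of 43 and 22 of 33). Cnot2 and the 6 genes listed here were picked for their values.

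Gene lists from pathways in which NMD is known to act, or that are abundant in cortex, differed in how much of their reads NMD-annotated transcripts held. Over all genes the share was 0.326% and 0.338%. The hnRNPs and other RNA-binding regulators stood at 2.05% (1.77 to 2.36) and 2.50% (2.18 to 2.87), from 183 of 8946 and 201 of 8030 reads, with 20 members in 16 of the 81 genes with reads. Ddx5-208 alone gave 114 and 128 of those reads. SR proteins and their kinases stood at 1.22% (0.848 to 1.76) and 1.32% (0.924 to 1.87), from 28 and 30 reads in 8 members, of which Srsf9-205 gave 20 and 20. In both lists a single transcript held most of the reads. No member of any list passed the test between libraries: 7 hnRNP-list and 3 SR-list members were tested, against 183 members in all.

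Smaller counts stood behind the named genes of these lists. In the RNA-binding list, Hnrnpdl-201 had 8 of 128 and 6 of 107 reads and Hnrnpa1-203 6 of 141 and 4 of 112, both with an intron after the coding stop. In the SR list, Srsf6-201 had 1 of 50 and 5 of 43, Srsf3-201 2 of 127 and 3 of 102, and Clk2-204, from a kinase that phosphorylates SR proteins, 1 of 41 and 1 of 70. Each of these is too low to separate the libraries.

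By reads, the remaining lists lay at or below the value of all genes. By detection most did not lie lower. Among genes with an annotated NMD transcript, 17.1% had a member over all genes. This was 33.3% for oxidative phosphorylation and for the polyamine pathway, 26.3% for ribosomal proteins and 25.9% for ubiquitin and proteasome. It was 25% for the neurodegeneration list and for the NMD factors, 19.0% for synaptic genes and 14.3% for translation factors. The ubiquitin and proteasome list was at 0.253% and 0.311% with 8 members, led by 2 proteasome subunits: Psma3-201, with a 3' splice site moved by 5 nt, had 14 of 181 and 16 of 165 reads, and Psmc5-202, with a retained intron of 78 nt, had 9 of 401 and 12 of 335. In the same list Psma3-206 had 2 and 4 reads and Psmf1-206 3 of 55 and 3 of 42. Nuclear-encoded oxidative phosphorylation was at 0.142% and 0.128% with 8 members. Those with the most reads belonged to complex I, with Ndufs6-202 at 6 of 74 and 4 of 70 reads, Ndufa7-202 at 5 of 99 and 4 of 94, Ndufb8-205 at 6 of 175 and 3 of 142 and Ndufs4-202 at 4 of 73 and 4 of 71. Cytosolic ribosomal proteins were at 0.0872% and 0.0775%, with 9 and 6 reads in 5 members. Rps19-205 had 3 and 3 of them, Rpl10a-203 2 and 1, and Rpl12-201 3 and 0. These genes have many processed copies in the genome, so their read counts carry that uncertainty.

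Translation factors were at 0.0345% and 0.0416%, with Eif2a-207 at 2 and 3 reads and Eif4a2-210 at 1 and 0. Synaptic genes, which gave 18404 and 16807 reads, had 4 members with 1 read each (Dnm1-215, Gria2-203, Napb-202 and Stx1a-204), 0.0109% and 0.0119%. This was far below the share over all genes in both libraries, and the intervals (0.00298 to 0.0396 and 0.00326 to 0.0434) did not reach it. They cover counting error only, not the spread between genes, so they do not test the list. By detection the list did not lie lower: 4 of its 21 genes with an annotated NMD transcript had a member (19.0%), against 17.1% over all genes. The neurodegeneration list was at 0.0256% and 0.0384% with 3 members, Tardbp-201 (3 of 49 and 3 of 34), Tardbp-208 (1 and 1) and Tbk1-204 (0 and 1). Tardbp encodes TDP-43, which is known to limit its own level through splicing after its coding stop. Both of its members have the stop of a coding transcript of the gene and an intron after it. The polyamine pathway was at 0.261% and 0%, with Sat1-207 at 4 of 47 and 0 of 48 reads and Azin1-205 at 1 and 0. Sat1 encodes the acetyltransferase that starts polyamine breakdown. The NMD and exon junction factors had 1 member, Magohb-203, with 1 read in replicate 1, 0.114% and 0% of the list's 876 and 804 reads, where 0 reads allow up to 0.476% (Wilson). Only 4 of its 23 genes have an annotated NMD transcript, so this list could show little.

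**Figure D5:**
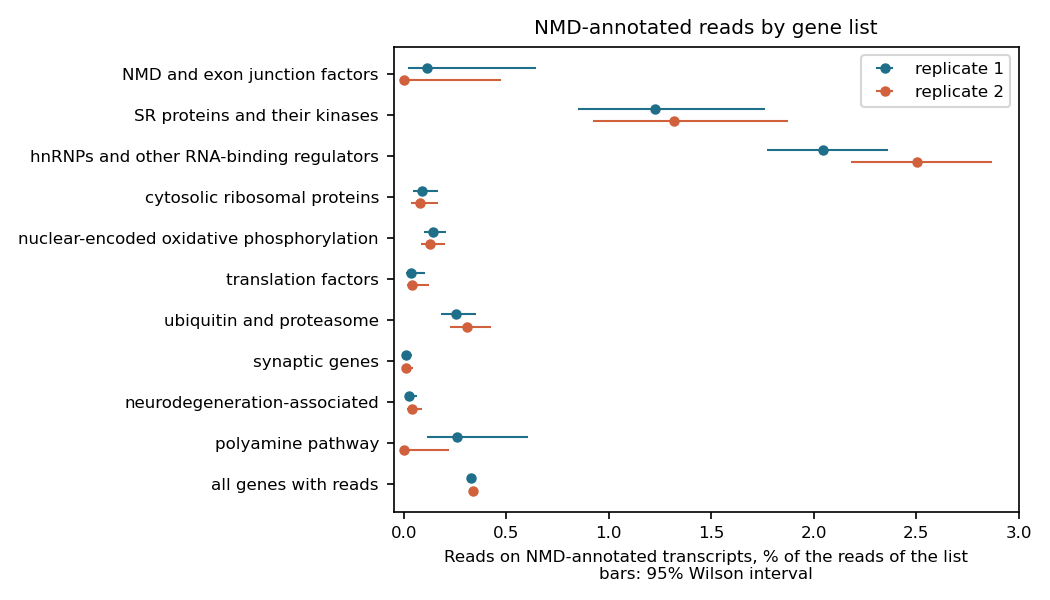
Share of the reads of each gene list that fell on NMD-annotated transcripts (x axis, percent), in replicate 1 and replicate 2, with 95% Wilson intervals as bars. The RNA-binding and SR lists lie between 1.22% and 2.50%, and the synaptic list lies near 0, against 0.326% and 0.338% over all genes with reads.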

How the data were processed

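The authors deposited, per library, a table that gives each transcript model its number of long reads, as whole counts, and the exons of those models on mm10. TALON is named in the annotation's source column, per the file headers. The aligner, filters, versions and use of strand: not given in the sources used here. The deposited counts were used as they stand: 871524 and 839150 reads. Transcript types came from the deposited annotation, and coding sequences, stop codons and bases from GENCODE M21. Shares were taken over the reads of all models given to a gene, with 95% Wilson intervals (scipy 1.17.1). Libraries were compared with Fisher's exact test in genes with 20 or more reads in each library, for transcripts with 5 or more reads. Scalings by edgeR 4.0.16 (TMM) and DESeq2 1.42.0 were alternatives for the CPM. With 1 group, no contrast between conditions exists. The test was checked on simulated data.

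The members, the 10 gene lists and the tests were chosen with earlier results of these data known. Transcripts named are the 20 members with the most reads, members with 50% or more of a gene's reads, up to 4 per list and 3 per structural class, and the 10 cassette exons with the most informative reads. The rule for a moved splice site was changed after its first output was seen, and the NMD-only junctions, stop codon counts and 4-nt shifts were also added then. Some items that these rules name are not reported here.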

Additional observations from a re-analysis of the deposited data

How the results depend on the processing

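The number of NMD transcripts that differ between the libraries was 0 in all 6 alternatives run (annotated transcripts only, multi-exon models only, gene minimums of 10 and 50, no transcript minimum, shared intron chains left out), with 6 to 11 at an unadjusted p under 0.05. Levels depended on the denominator. The share of annotated-gene reads was 0.479% over annotated transcripts only and 0.382% over multi-exon models. It was 0.248% without members that overlap another gene on the same strand and 0.299% without splice sites moved by 10 nt or less, both chosen after seeing the data. The median share within genes was 3.08% at a gene minimum of 10, 1.48% at 50, 3.74% over annotated transcripts only, 2.87% over multi-exon models and 2.76% without overlapping genes (also added). Median inclusion of cassette exons was 3.77% over annotated transcripts only, 5.39% with 50 informative reads and 7.18% without exons that overlap a coding exon (added). Leaving out either replicate gave 0.326% to 0.338%, 2.63% to 2.70% and 8.20% to 8.33%. The summed level was 3265 and 3379 CPM by library totals, 3306 and 3337 with TMM and 3354 and 3289 with DESeq2 size factors, which turns the order of the libraries. Of the 61 named members, 29 moved by more than the replicate SD over annotated transcripts only and 9 over multi-exon models. The value was higher than in the main setting for 60 and 49 of the 61. Both settings keep the reads of the member and leave out other reads of its gene, so a share could only rise or stay the same. No paired analysis was possible because there is only 1 group. Depth limits the class: 306 of 757 members rest on 1 read, and a count of 0 allows up to 3.87 or 4.42 CPM.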
